A study of Mus musculus with 6 samples.

Results

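The genes described here are the liver X receptors (LXRs) and genes of cholesterol export, lysosomal release, esterification and oxysterol synthesis. The receptor genes are Nr1h2 and Nr1h3, the efflux transporters are Abca1 and Abcg1, and Apoe encodes a carrier of exported lipid. Npc1, Npc2 and Lipa serve the release of cholesterol from the lysosome, Soat1 its esterification and Ch25h oxysterol synthesis. These members were picked by symbol for their known roles, and all 10 were found among the 35434 genes of the table. RNA was sequenced from 6 mouse samples of bone marrow-derived macrophages (BMDMs), 3 untreated (Ctrl) and 3 taken 12 h after stimulation with zoledronic acid (ZA). Per the methods of the study, the BMDMs came from the femurs of C57BL/6 mice and were grown for 7 days in 10 ng/ml M-CSF, the growth factor that drives macrophage differentiation. Wild-type C57BL/6 mice were obtained by the study as females 6 weeks old. The age at marrow collection, the ZA concentration for these libraries and whether libraries came from separate mice are not given in the sources used here, so the p-values measure the spread between these samples, which may be technical. Expression was given as FPKM, the number of sequenced fragments scaled by the length of the transcript and by the total of the library, so that levels can be compared between genes.

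LXRs are nuclear receptors that bind oxysterols, pair with retinoid X receptors (RXRs) and switch on genes that move cholesterol out of the cell. In macrophages, cholesterol taken up with lipoproteins and dead cells is freed in the lysosome and is then either exported to lipoprotein acceptors or stored as ester in lipid droplets. A separate system, centred on the transcription factor SREBP-2, raises cholesterol synthesis and uptake when sterols are low. ZA is a nitrogen-containing bisphosphonate, a class of bone drugs that block farnesyl diphosphate synthase, an enzyme of the mevalonate pathway upstream of cholesterol.

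Library totals lay between 41230600 and 42155808 fragments, and 3 fragments on a gene of median length corresponded to 0.021 FPKM. The summed level of 10 macrophage markers was 23934 to 27850 FPKM in Ctrl and 24846 to 28351 in ZA. Most of this sum was the single gene Lyz2, at 20472 to 24406 FPKM in Ctrl and 21272 to 24669 in ZA. The sum of 8 lymphocyte markers was at most 0.879 FPKM in any library. Markers of other cells were also present, and every tested gene had a lower mean in ZA: 6 of 6 for neutrophils and their progenitors (summed level of the list 35.8 to 51 FPKM in Ctrl and 31.6 to 37.3 in ZA, with Ly6g listed at 0), 5 of 5 for fibroblasts (19.7 to 34.8 and 17.1 to 24.7), 3 of 3 for osteoclasts (185 to 204 and 162 to 186) and 3 of 3 for the erythroid and megakaryocyte list (67.5 to 77.6 and 55.8 to 68.3). The single tested dendritic cell marker, Itgax, also had a lower mean in ZA, with overlapping groups, and the list summed to 31.2 to 36.3 FPKM in Ctrl and 28.3 to 36 in ZA. In the macrophage list 9 of 10 genes were higher in ZA, Csf1r and Adgre1 among them. None passed the adjusted test in limma, where 4 had an unadjusted p under 0.05, while in voom Csf1r (adjusted p = 0.00878) and Adgre1 (adjusted p = 0.0114) passed it. In such bulk samples, fewer cells of a type and less RNA per cell cannot be told apart, and the part of these markers in the values below was not tested.

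Most of the members were abundantly expressed, and levels differed widely between genes. Apoe was the most abundant, at 7234 ± 167 FPKM (SD, n = 3) in Ctrl, which ranked 6 among all genes and took 1.72% to 1.81% of all fragments of a library. Lipa (845 ± 20.4) and Npc2 (510 ± 2.49) followed. Soat1, Npc1, Abcg1 and Abca1 came next in this order, between 44 and 105 FPKM over the 6 libraries. Nr1h2 and Nr1h3 shared the next place, since their values overlapped at 24.2 to 29.3 FPKM. Ch25h was nearly silent, at no more than 0.746 FPKM in any library. Apart from the receptors, the 6 values of each gene were separated from those of the next gene in the order.

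**Figure D1:**
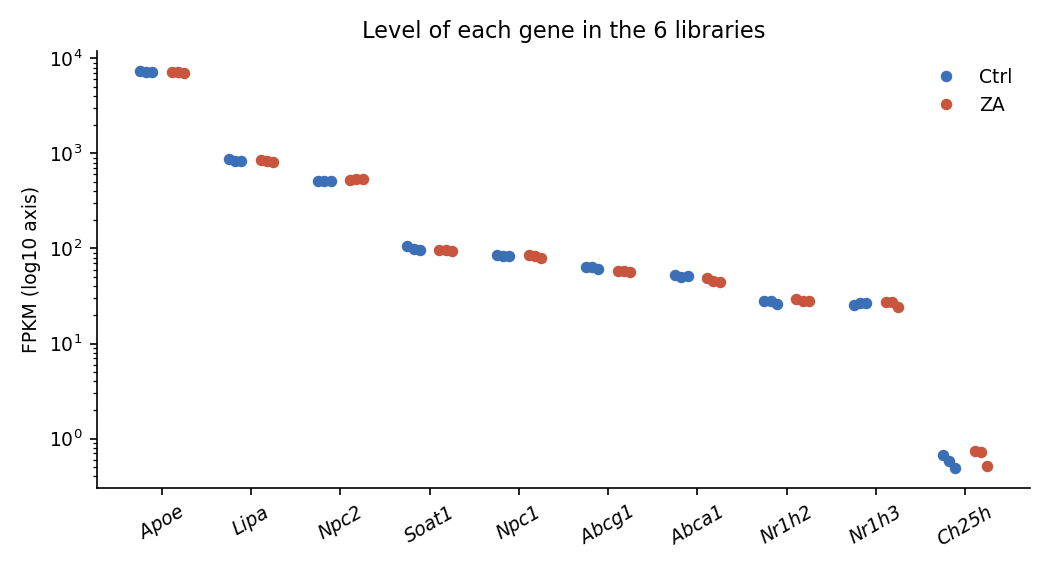
FPKM (log10 axis) of the 10 genes in each of the 3 Ctrl (blue) and 3 ZA (red) libraries, ordered by mean. Differences between genes are much larger than those between Ctrl and ZA, and Nr1h2 and Nr1h3 overlap at 24.2 to 29.3 FPKM.

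The main difference among the members was in the efflux transporters: Abca1 and Abcg1 were both lower in every ZA library than in any Ctrl library, and Npc2 was higher in every ZA library. The sizes were small, with no log2 difference beyond 0.15, and none of the 9 members tested passed an adjusted p of 0.05 (limma, Benjamini-Hochberg over 9800 genes). By comparison 36 of the 9800 genes passed it, or 0.367%. At an unadjusted p under 0.05, 2 members were lower in ZA and 1 was higher, where 4.85% of all tested genes were lower and 7.5% were higher. After median centring of the libraries the split over all genes turned from 475 lower and 735 higher to 664 lower and 508 higher. The groups of 7 of the 10 members overlapped. Over all tested genes, 6.76% lay wholly below Ctrl in ZA and 11.4% wholly above. The median log2 difference was -0.02 over the 9 members tested and 0.01 over all genes.

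**Figure D2:**
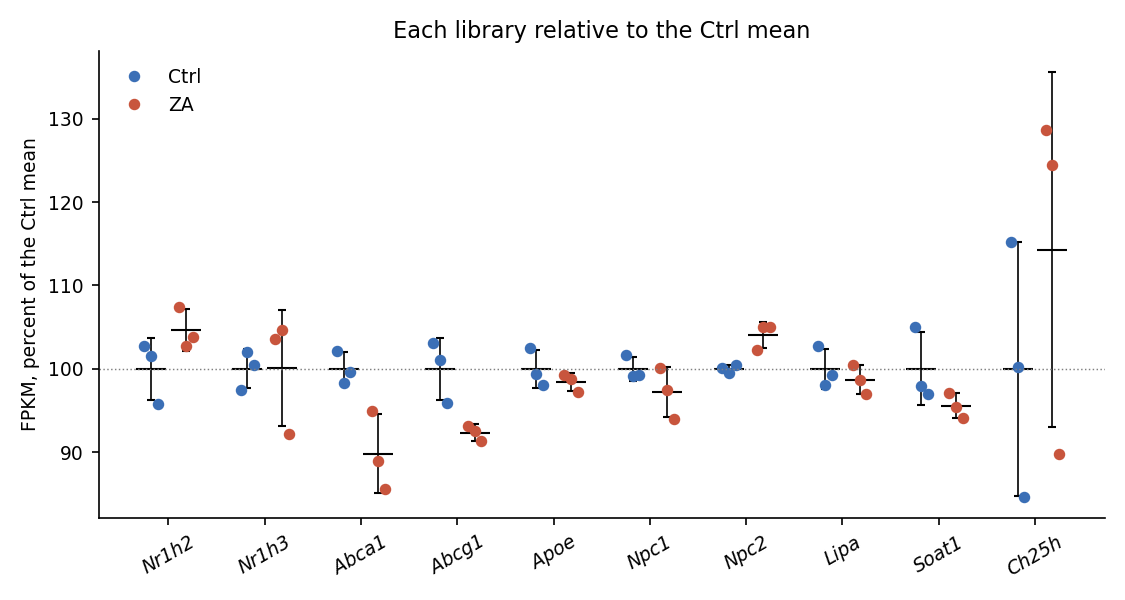
FPKM of each library as a percent of the Ctrl mean of the same gene, for 3 Ctrl (blue) and 3 ZA (red) libraries, with the group mean (dash) and SD (bars). The axis does not start at 0. Abca1 and Abcg1 lie wholly below Ctrl in ZA and Npc2 wholly above, while Ch25h scatters widely at a mean of only 0.58 FPKM in Ctrl.

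The receptors differed little between the groups. Nr1h2, which encodes LXRβ, the form present in most tissues, was at 28, 27.7 and 26.1 FPKM in the Ctrl libraries and at 29.3, 28 and 28.3 in the ZA libraries. The lowest ZA library did not exceed the highest Ctrl library, so the groups overlapped. The difference was 0.07 on the log2(FPKM + 1) scale (SE 0.0346, 95% interval -0.01 to 0.15, limma adjusted p = 0.484). Nr1h3, which encodes LXRα, the form enriched in liver, fat and macrophages, was at 25.6, 26.8 and 26.4 FPKM in Ctrl and at 27.2, 27.5 and 24.2 in ZA. Its ZA values thus lay on both sides of Ctrl, around the same mean of 26.3 FPKM in each group. The log2 difference was 0.00, with a 95% interval of -0.11 to 0.11.

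Abca1, the transporter that loads cholesterol and phospholipid onto lipid-poor apolipoprotein A-I, had the largest moderated statistic and the largest log2 difference of the members. It was at 52.5, 50.5 and 51.2 FPKM in Ctrl and at 48.8, 45.7 and 44 in ZA, each value resting on 19342 to 22800 fragments. The groups did not overlap, and the ZA libraries spread more widely than the Ctrl libraries. The mean went from 51.4 ± 0.978 to 46.1 ± 2.43 FPKM (SD, n = 3), a change of -10.2%. The log2 difference of -0.15 (SE 0.0384, 95% interval -0.24 to -0.07) had an unadjusted p of 0.00382 and an adjusted p of 0.17 in limma over all genes. In the count model voom, fitted to the fragments behind the FPKM values, the adjusted p was 0.0396, and over the 14 alternative analyses it ranged from 0.0396 to 0.38.

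Abcg1, the partner transporter that passes cholesterol on to formed high-density lipoprotein, showed the same direction. Its values were 64.6, 63.3 and 60.1 FPKM in Ctrl and 58.4, 58 and 57.2 in ZA. Here the Ctrl libraries were the more spread and the ZA libraries lay close together below them. The mean of 62.7 ± 2.32 FPKM in Ctrl compared with 57.9 ± 0.63 in ZA, a change of -7.67%. The log2 difference was -0.11 (SE 0.0306, 95% interval -0.18 to -0.04, unadjusted p = 0.00602, limma adjusted p = 0.203). Both transporters kept a negative difference and an unadjusted p under 0.05 in each of the 14 alternatives, at log2 -0.19 to -0.12 for Abca1 and -0.14 to -0.09 for Abcg1.

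**Figure D3:**
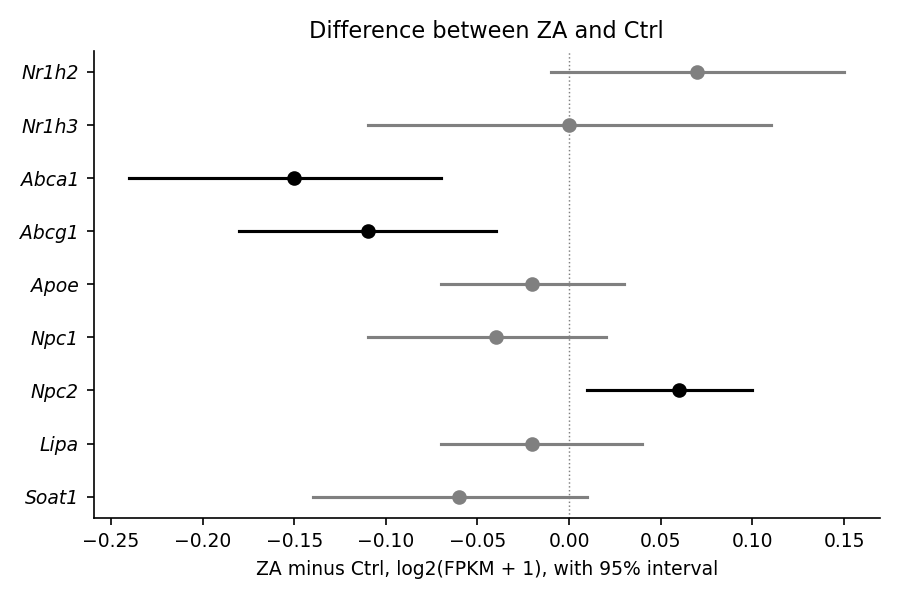
Difference between ZA and Ctrl in log2(FPKM + 1) for the 9 members tested, with the 95% interval from limma (n = 3 per group). Intervals that do not cross 0 are black: Abca1 and Abcg1 below 0, Npc2 above.

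The sequence before the Abca1 start is shown because Abca1 is a classical LXR target and had the largest log2 difference of the members. It is the stretch of 250 bases just upstream of the RefSeq transcript start on chromosome 4 of GRCm38.p6, chr4:53159896-53160145, printed 5′ to 3′ on the minus strand, which is the strand of the gene. Capitals mark, in order, an E-box (CACGTG) and the match to the LXR direct repeat.
Abca1 upstream: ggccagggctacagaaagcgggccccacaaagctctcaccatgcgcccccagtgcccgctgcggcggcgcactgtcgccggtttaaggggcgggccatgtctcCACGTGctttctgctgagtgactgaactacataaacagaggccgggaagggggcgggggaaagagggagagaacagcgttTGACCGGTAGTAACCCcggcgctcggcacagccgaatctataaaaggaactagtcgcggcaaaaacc
Read on the opposite strand the second match is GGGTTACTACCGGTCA, from -67 to -52 relative to the start site. LXR with RXR is known to bind repeats of the form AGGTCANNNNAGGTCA. The Abca1 match differs from that form at 3 bases, and 21.9% of the 32851 mouse promoter windows of 300 bases hold a match that close on either strand. The limit of 3 mismatches was taken after none of the members had a match at 2, a limit met by 3.02% of windows. The E-box spans -147 to -142 and occurs in 7.15% of windows. The windows of 8 of the 10 members were on hand (11 windows, with none for Abcg1 or Npc1), and in them the half-site AGGTCA (16.3% of all windows) and the sterol regulatory element TCACNCCAC (1.24%) were not found. The windows of the other 7 members with one held no match to any of these letters.

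Apoe encodes the apolipoprotein that macrophages secrete with exported cholesterol, and it is also an LXR target. It was at 7418, 7191 and 7092 FPKM in Ctrl and at 7180, 7144 and 7035 in ZA. The groups overlapped, with 1 Ctrl library above the rest. The log2 difference of -0.02 had a 95% interval of -0.07 to 0.03 (limma adjusted p = 0.725), so that a change of the size seen in Abca1 lay outside its interval.

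The lysosomal genes did not share a direction: the mean of Npc2 was higher in ZA, and those of Npc1 and Lipa were slightly lower. Npc1 and Lipa followed each other over the 6 libraries (Pearson's r = 0.87), while Npc2 ran against Npc1 (r = -0.76) and Lipa (r = -0.47). This likeness was not particular to the lysosomal genes. Npc1 followed Abca1 at r = 0.9, Lipa followed Soat1 and Apoe at r = 0.88 each, and Npc2 ran against Abca1 at r = -0.95. The points of these correlations share the split between Ctrl and ZA. Npc2, the soluble protein that takes cholesterol from the lysosome lumen and hands it to NPC1, was at 510, 507 and 512 FPKM in Ctrl and at 521, 535 and 535 in ZA. Every ZA value was above every Ctrl value, and the 3 Ctrl values differed by little. The mean of 530 ± 8.32 FPKM in ZA compared with 510 ± 2.49 in Ctrl, a change of 4.09%. The log2 difference was 0.06 (SE 0.0198, 95% interval 0.01 to 0.1, unadjusted p = 0.0195, limma adjusted p = 0.302). The unadjusted limma p was 0.0571 after median centring, 0.0811 without a variance trend, 0.0712 without Ctrl replicate 2, 0.0626 without ZA replicate 2 and 0.0533 without ZA replicate 3, so that the unadjusted call rested on each of these libraries.

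Npc1, the membrane protein that carries cholesterol out of the lysosome, was at 86.3, 84.1 and 84.2 FPKM in Ctrl and at 84.9, 82.7 and 79.8 in ZA. The groups overlapped, and the log2 difference was -0.04 with a 95% interval of -0.11 to 0.02. Lipa, the acid lipase that frees cholesterol from its ester in the lysosome, was at 868, 829 and 839 FPKM in Ctrl and at 849, 834 and 820 in ZA. Its groups overlapped as well, at a log2 difference of -0.02 (95% interval -0.07 to 0.04).

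Soat1 encodes the enzyme that esterifies cholesterol for storage in droplets. It was at 105, 97.9 and 97 FPKM in Ctrl and at 97.1, 95.4 and 94.1 in ZA. The highest ZA library slightly exceeded the lowest Ctrl library, so the groups overlapped. The log2 difference was -0.06 (95% interval -0.14 to 0.01, unadjusted p = 0.0863 in limma). The unadjusted limma p was 0.0457 after median centring, 0.0355 with the replicate number as a block and 0.0465 without Ctrl replicate 3, and the voom p was 0.0485. The adjusted p was at least 0.286 in all 14 alternatives, which used limma or voom.

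Ch25h encodes the enzyme that makes 25-hydroxycholesterol, an oxysterol ligand that activated macrophages are known to produce. It was at 0.668, 0.581 and 0.491 FPKM in Ctrl and at 0.746, 0.722 and 0.521 in ZA, or 28 to 42 fragments per library. The groups overlapped, and the gene fell below the minimum mean of 1 FPKM and was not tested. At this depth a difference of the size of the Abca1 difference could not be seen in Ch25h.

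Among the partners and co-regulators of LXR, 10 of 13 listed genes were tested, and 0 passed the adjusted test in limma or in voom. At an unadjusted p under 0.05, 2 were higher in ZA and 0 were lower. These were Rxrb, an RXR form that pairs with LXR (19.5 ± 0.619 FPKM in Ctrl, 21.4 ± 1.11 in ZA, log2 0.13, limma adjusted p = 0.29) and the corepressor gene Ncor1 (13.8 ± 0.233 and 14.6 ± 0.351, log2 0.08, adjusted p = 0.37). Ncoa2, a coactivator gene, was at 5.29 ± 0.15 FPKM in Ctrl and 5.62 ± 0.105 in ZA. The list median of 0.048 on the log2 scale compared with 0.01 over all genes.

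The other known LXR targets split into both directions. Of 20 listed genes 14 were tested, 2 rose and 1 fell at an adjusted p under 0.05, and the median log2 difference was -0.007. Lpl, the lipoprotein lipase of macrophages, was at 852, 844 and 859 FPKM in Ctrl and at 786, 776 and 760 in ZA. It fell by 0.14 on the log2 scale (SE 0.0204, limma adjusted p = 0.0487). Scd2, a fatty acid desaturase, was at 32.3, 31.8 and 32.9 FPKM in Ctrl and at 37.1, 36.8 and 38 in ZA. It rose by 0.2 on the log2 scale (SE 0.0262, adjusted p = 0.0449). Fasn, the fatty acid synthase, was at 9.57, 9.65 and 9.83 FPKM in Ctrl and at 11.5, 11.4 and 12.3 in ZA. It rose by 0.25 on the log2 scale (SE 0.0378, adjusted p = 0.0487). Scd2 and Fasn are also known targets of the SREBP factors. These calls lay close to the threshold: of the 14 alternatives, 6 kept the call of Lpl, 6 that of Scd2 and 4 that of Fasn.

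At an unadjusted p under 0.05 the same list held 4 lower and 3 higher genes. Besides Lpl the lower genes, named after their values were seen, were Pltp, Mylip and Plin2. Pltp, a phospholipid transfer protein, was at 597 ± 30 FPKM in Ctrl and 541 ± 9.13 in ZA (log2 -0.14, limma adjusted p = 0.177). Its adjusted p was 0.0495 in voom, the lowest of the 14 alternatives, which reached 0.413. Mylip, which encodes an LXR-induced ubiquitin ligase, was at 28 ± 0.717 and 25.7 ± 0.251 (log2 -0.12, adjusted p = 0.152). Neither gene overlapped between the groups. The third higher gene was the desaturase gene Scd1 (3.9 ± 0.428 and 4.82 ± 0.325 FPKM, log2 0.25, adjusted p = 0.209). Srebf1, the lipogenic LXR target that encodes SREBP-1, was at 17 ± 0.596 FPKM in Ctrl and 17.2 ± 0.237 in ZA, with overlapping groups.

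Among the other lipid transporters, 9 of 14 listed genes were tested and 0 passed either the adjusted test, in limma or voom, or an unadjusted p of 0.05 in limma. At an unadjusted p under 0.05, 2 genes of the list were higher in voom, with the replicate number as a block, without Ctrl replicate 2 and without ZA replicate 1, and 1 was lower without ZA replicate 1. The leading genes were Apobr, a lipoprotein receptor (34.3 ± 1.56 FPKM in Ctrl, 36.2 ± 0.86 in ZA), Scarb1, the scavenger receptor that exchanges cholesterol with high-density lipoprotein (43 ± 2.31 and 45.9 ± 1.87), and Abca3 (20.4 ± 0.0881 and 20.9 ± 0.195). Of these only Abca3 had groups that did not overlap.

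The other genes of lysosomal sterol handling (11 of 12 tested) held 0 adjusted calls in limma and 1 in voom, with 1 gene higher and 1 lower at an unadjusted p under 0.05. Psap, the precursor of the saposins, was at 9826 ± 92.3 FPKM in Ctrl and 9307 ± 226 in ZA (log2 -0.08, limma adjusted p = 0.232), and it was the gene called in voom (adjusted p = 0.0474, and 0.0474 to 1 over the 14 alternatives). Tmem97, which encodes a protein that binds NPC1 and is also in the list of SREBP-2 targets, was at 20.1 ± 0.482 and 21.9 ± 0.992 (log2 0.12, adjusted p = 0.269). Lamp2, a lysosomal membrane protein, was at 121 ± 3.55 and 125 ± 0.497 FPKM.

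In the sterol transfer list 14 of 19 genes were tested, and 1 rose at an adjusted p under 0.05. It was Stard4, a soluble sterol carrier that is also an SREBP-2 target, at 7.59, 7.32 and 7.41 FPKM in Ctrl and 8.75, 8.74 and 9.21 in ZA. The groups were well apart, at a log2 difference of 0.23 (SE 0.0355, limma adjusted p = 0.049), and 3 of the 14 alternatives kept the call. Osbpl8 (91.3 ± 1.27 and 85.6 ± 2 FPKM, log2 -0.09) and Gramd1b (4.93 ± 0.111 and 4.47 ± 0.119, log2 -0.12), both lipid transfer proteins at membrane contact sites, were lower in ZA without passing the adjusted test in limma. In voom Gramd1b passed it, at an adjusted p of 0.0426 (0.0426 to 0.512 over its 13 alternatives).

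For ester storage and hydrolysis, 7 of 11 genes were tested and 0 passed the adjusted test in limma or voom. Plin2, the main lipid droplet coat protein of macrophages and also an LXR target, was at 233, 236 and 229 FPKM in Ctrl and at 226, 215 and 213 in ZA. The groups did not overlap (log2 -0.09, unadjusted p = 0.0089, limma adjusted p = 0.235). Lipe, a cytosolic ester hydrolase, was at 6.81 ± 0.342 and 7.43 ± 0.718 FPKM, and Hilpda, an inhibitor of droplet lipolysis, at 5.32 ± 0.536 and 4.98 ± 0.253, both with overlap.

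In the oxysterol list 7 of 11 genes were tested, and 2 rose at an adjusted p under 0.05. Cyp51, one of them, encodes an enzyme of late cholesterol synthesis and is an SREBP-2 target. It was at 13.8, 14.5 and 14.5 FPKM in Ctrl and at 17.8, 18.2 and 19.6 in ZA, with the groups well apart (log2 0.35, SE 0.041, limma adjusted p = 0.0304), and 7 of the 14 alternatives kept the call. The adjusted calls of the list in limma stayed at 2 with a pseudocount of 0.1, a minimum mean of 5 FPKM, median centring, quantile normalization and the replicate block. They were 0 with no filter, with no variance trend, without any 1 of the Ctrl libraries and without ZA replicate 2, and 1 without ZA replicate 3. Gpr183, the receptor for oxysterols derived from 25-hydroxycholesterol, was at 4.38 ± 0.0913 FPKM in Ctrl and 3.62 ± 0.232 in ZA, without overlap (log2 -0.22, adjusted p = 0.11).

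The SREBP-2 targets, most of them genes of sterol synthesis, stood apart in size. Of 25 listed genes 24 were tested, 10 rose and 0 fell at an adjusted p under 0.05, and 23 were higher at an unadjusted p under 0.05. The list median was 0.241 on the log2 scale, against 0.01 for all genes. Msmo1 (43.2 ± 1.46 and 52.7 ± 1.08 FPKM, log2 0.28) and Insig1 (37.2 ± 0.473 and 43.3 ± 0.577, log2 0.21) rose at an adjusted p of 0.0304 each in limma. The number of adjusted calls in limma was 10 with a pseudocount of 0.1, 9 at a minimum mean of 5 FPKM and 8 with the replicate block. It was 7 with median centring and 6 with quantile normalization. It was 0 with no filter and with no variance trend, each with 21 genes still higher at an unadjusted p under 0.05. It was also 0 without ZA replicate 2, Ctrl replicate 1 or Ctrl replicate 2, where 20, 19 and 21 genes of the list were still higher at an unadjusted p under 0.05. It was 1 without Ctrl replicate 3, 2 without ZA replicate 3 and 6 without ZA replicate 1.

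**Figure D4:**
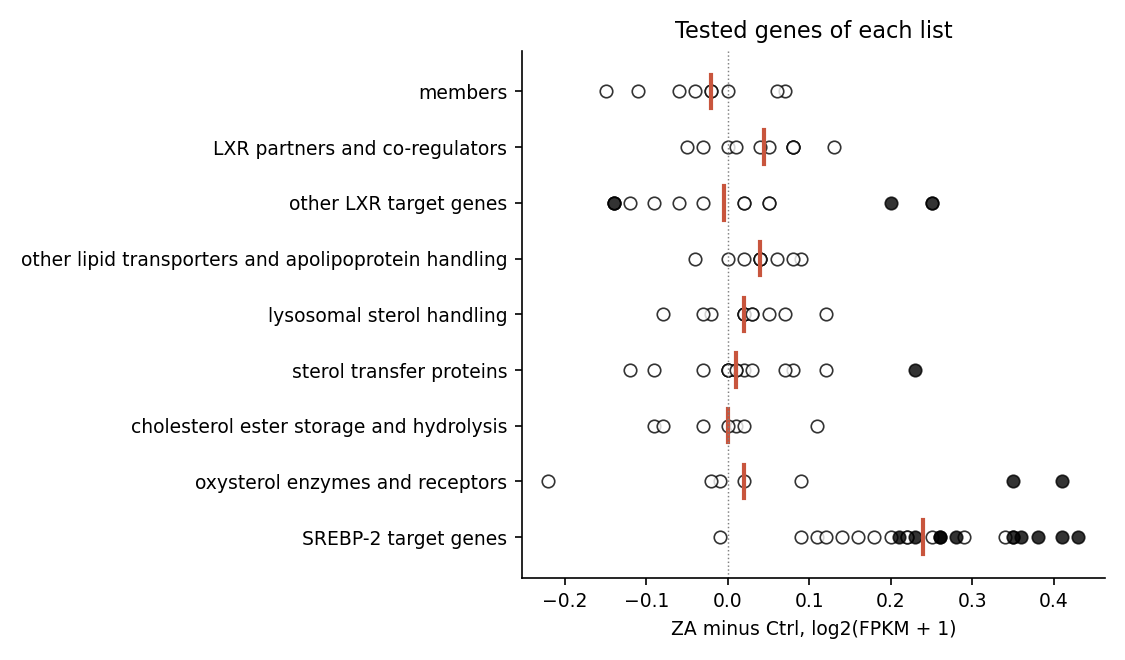
Difference between ZA and Ctrl in log2(FPKM + 1) for each tested gene of the members and of 8 related gene lists, with the members left out of the lists. Filled circles have an adjusted p under 0.05 (limma) and the red line is the list median, which is 0.241 for the SREBP-2 targets and between -0.02 and 0.048 for the others.

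The genes whose log2 values followed Abca1 most closely over the 6 libraries were Cd44 (Pearson's r = 0.9856), a hyaluronan receptor, Gadd45a (r = 0.9784), a growth arrest gene, and Pld3 (r = 0.9778), a lysosomal nuclease. These are given as a description: they are the 3 highest of 9800 genes over only 6 libraries, and the points share the split between Ctrl and ZA.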

How the data were processed

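The authors deposited 1 table of FPKM values for 35434 genes and 6 libraries, made from 150 bp paired-end reads. Per the labels, the submitters' processing notes name the mouse build mm9. The aligner, counting program, annotation and test are not given in the sources used here. The labels name a VAHTS and a SMARTER library kit, and the study's methods the first. Separators between columns were missing in most rows of the deposited table. Rows were cut by number format where 1 cut was possible (22896 rows), and otherwise where all values were whole fragments for 1 gene length (12522 rows). 16 rows could not be settled and were left out. Of 2000 simulated rows 2000 were restored exactly. These were built from restored rows in the number forms that the cutting assumes, so they do not test rows that depart from those forms. The restored genes hold 99.7% of each library's fragments, and the tested genes had a median of 1395.

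Differences were tested on log2(FPKM + 1) by limma 3.58.1 under R 4.3.3, with a trended variance prior and two-sided p-values. The 9800 genes whose mean reached 1 FPKM entered the fit, and p-values were adjusted by Benjamini-Hochberg over all of them. Fold changes on this scale understate those of low genes. On simulated data for this comparison (9800 genes), 98% of 200 genes changed 2-fold were called, with 12 unchanged genes called. No smaller change was simulated. The 98% therefore gives no power for differences of the size seen in the members, at most 0.15 on the log2 scale. None of the 6 library pairs within a group was a duplicate (chi-square per gene 3.52 to 9.73), and pairs between groups were not compared. The lists were written by hand from known functions, and the members were left out of them. Named are all members, the 3 genes of each pathway list with the largest moderated statistic, and the 3 genes most like Abca1. Some results under this rule are not reported here. Members and lists were chosen with earlier results of these data known. The alternatives were a pseudocount of 0.1, no filter or a minimum mean of 5 FPKM, median centring, quantile normalization, no variance trend, the replicate number as a block, voom on recovered fragments, and leaving out each library. Promoter sequences are from RefSeq on GRCm38.p6, matched by symbol.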

Additional observations from a re-analysis of the deposited data

How the results depend on the processing

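The number of genes with an adjusted p under 0.05 (limma), 36, was 1 with no filter, 1 without a variance trend, 20 with quantile normalization, 132 with voom and 0 to 25 when 1 library was left out. It was 25 without ZA replicate 1, 6 without Ctrl replicate 3, 4 without ZA replicate 3, 1 with either other Ctrl library left out, and 0 without ZA replicate 2, where 973 genes still had an unadjusted p under 0.05. The number of members that were lower at an unadjusted p under 0.05, 2, was 3 with median centring, the replicate block, voom or Ctrl replicate 3 left out, Soat1 being the third, and 2 in the other 10 alternatives. The 1 higher member, Npc2, was no longer counted with median centring (0) or without a variance trend (0), and the count was 0 to 1 when 1 library was left out. With voom 1 member, Abca1, passed the adjusted test, and with 1 library left out 0 did. Of the members with a difference near 0, Lipa ranged from -0.033 to 0.000 with 1 library left out, above 0 without Ctrl replicate 1, and Nr1h3 from -0.032 to 0.055, above 0 when ZA replicate 3 or one of Ctrl replicates 2 and 3 was dropped. The cause of these shifts was not tested. The same-numbered libraries deviated together by correlations of 0.284, 0.0393 and 0.28. The highest correlations with another number were -0.00377, 0.0334 and -0.0278, so replicate 2 hardly stood out. Deviations from a group mean sum to 0, so these correlations are not independent. Any pairing is a hint from the data and not the design. With the replicate block 78 genes passed, and Abca1 had an adjusted p of 0.0667 in limma. Ch25h rested on only 28 to 42 fragments per library. Each group held 3 libraries, and what limited the calls of the other members was not tested.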
